A study of Moesziomyces aphidis with 9 samples.

Results

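The recurrent long junctions of Moesziomyces aphidis are splice junctions that span more than 1000 nt and were listed in at least 2 of the 6 main RNA sequencing libraries. There were 218 of them among 8340 different junctions in these libraries. Junctions were matched by scaffold, first intron base, last intron base and strand. A further 3897 junctions over 1000 nt were listed in 1 library each and are not members. Of the shorter junctions, 3184 of at most 1000 nt were listed in at least 2 libraries, and 2286 of these in all 6 (called core introns below).

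Moesziomyces aphidis is a yeast-like basidiomycete known for secreting glycolipid surfactants. All libraries came from strain DSM70725. Its cells grew at 30 °C in a yeast extract medium with 40 g/l glucose and were harvested after 114 h. The 3 glucose replicates are labelled not induced, with blastospores as cell form. The 3 soybean oil replicates received an additional 70 g/l soybean oil and are labelled induced, with filaments as cell form, so the effects of medium and of cell form cannot be told apart. The labels number the replicates without saying whether they were separate cultures, so the p-values below measure the spread between these samples, which may be technical. Total RNA of these 6 was sequenced as unstranded 50 bp single reads. Beside them stood 1 stranded library per medium, numbered as replicate 1, and 1 paired-end library with 95 bp reads, numbered as soybean oil replicate 2. These were not used to choose the members, but the labels do not show that their RNA came from other cultures.

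An intron is cut out of a transcript between a donor site at its 5′ end and an acceptor site at its 3′ end, and the exons on both sides are joined. Fungal introns are usually short, and yeast-like fungi tend to have few of them per gene. A spliced aligner records a junction where the parts of a read lie on both sides of a gap in the genome. The part of a read on 1 side of the gap is its anchor. A short anchor can match a genome in many places by its letters alone, and a long anchor in few. In an unstranded library the strand of a junction is not read from the molecule. The positions below are scaffold positions counted from 1, from the first to the last intron base. No source used here names a genome build, no gene is assigned to any position, and whether the members carry known splice site letters was not analysed here.

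The 6 main libraries held 163851 to 224962 junction reads each, so 3 reads amounted to 0.00133% to 0.00183% of a library. Each listed 100 to 124 of the members. The stranded lists held 40475 to 98593 junction reads, and the paired-end list 2532134. A junction missing from a list was taken as 0 reads there. Junction reads are not independent molecules, and all intervals given here cover counting error only.

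The members spanned 1003 to 268396 nt, with quartiles of 2366, 8142.5 and 14213 nt. They carried 2 to 7647 reads over the 6 libraries (median 17), and 23001 reads together. Of the 218, 127 were listed in 2 libraries, 38 in 3, 16 in 4, 11 in 5 and 26 in all 6. They lay on 24 scaffolds, 102 on the plus strand and 116 on the minus strand. At the length limit of the rule, the shortest members spanned 1003, 1006, 1012 and 1018 nt with 513, 89, 11 and 60 reads. The longest recurrent junctions outside it spanned 1000, 992, 985 and 976 nt with 6, 5, 91 and 2 reads.

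The members fell into a larger set with a short anchor and a smaller set with long anchors on both sides. For each member the largest anchor seen on each side in any of the 6 libraries was taken, and the smaller side was used. In 165 members this shorter anchor was 8 to 12 nt, with 52 members at 8 nt, 55 at 9 nt and 37 at 10 nt. In the other 53 it was 13 to 49 nt, with 39 of them at 40 nt or more. The limit of 12 nt was set after these values had been seen. The 165 are called narrow-anchor junctions and the 53 wide-anchor junctions. Among recurrent junctions of at most 1000 nt, 11 of 3184 (0.345%) had a shorter anchor of at most 12 nt, and among the long junctions listed once 3750 of 3897 did.

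**Figure D1:**
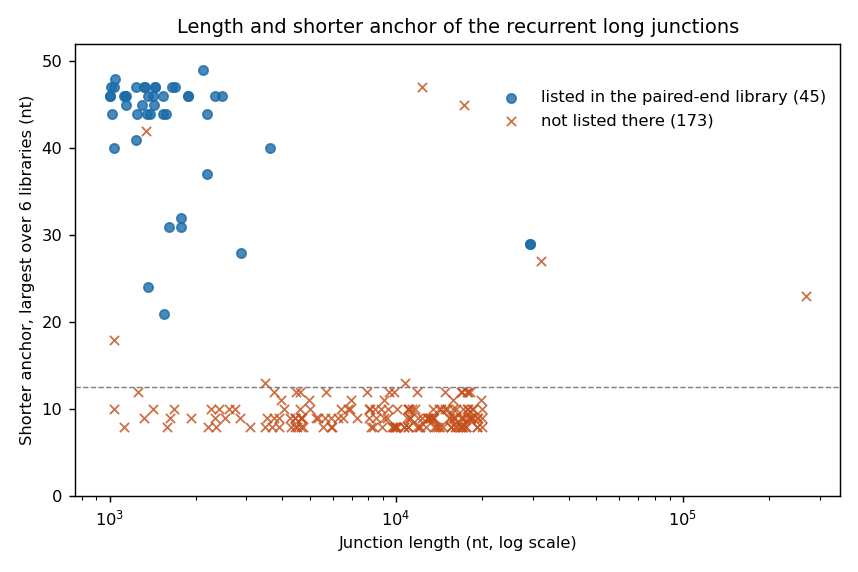
Length of each of the 218 members (x axis, nt, log scale) against its shorter anchor, the largest over the 6 main libraries (y axis, nt). The dashed line separates anchors of at most 12 nt from those of 13 nt or more, filled points are the 45 members listed in the paired-end library and crosses the 173 that were not. All 165 junctions under the line are crosses and none of them spans more than 19905 nt.

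Length differed between these sets. The narrow-anchor junctions spanned 1039 to 19905 nt with a median of 10099 nt, and the wide-anchor junctions 1003 to 268396 nt with a median of 1442 nt. The upper edge of the narrow-anchor set was sharp, since the long junctions listed once with so short an anchor reached 19977 nt, while those with wider anchors reached 354850 nt. Of the wide-anchor junctions 43 spanned at most 2500 nt. The narrow-anchor junctions carried 6359 reads in all (median 13, highest 377) and the wide-anchor junctions 16642 (median 61, highest 7647).

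At most 2.45% of the recurrent junctions in any length class up to 1000 nt had a short anchor, and the share was higher in each class from 1001 to 10000 nt. It was 3 of 153 recurrent junctions between 501 and 1000 nt, 5 of 32 between 1001 and 1500 nt, and 9 of 25 between 1501 and 2500 nt. From 2501 to 5000 nt it was 29 of 32, and from 5001 to 10000 nt it was 38 of 38. Listing in the paired-end library went the other way over the same classes of length, with 142 of 153, 25 of 32, 16 of 25, 2 of 32 and 0 of 38. Between 10001 and 20000 nt 84 of 87 had a short anchor and 0 of 87 were in the paired-end library. The 4 members over 20000 nt all had anchors of 13 nt or more, and 2 of them were in the paired-end library.

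**Figure D2:**
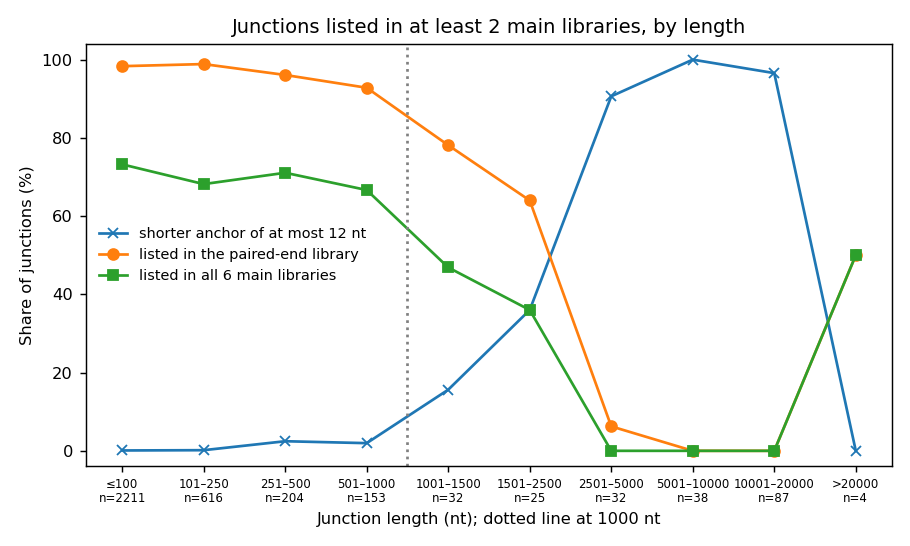
Recurrent junctions of the 6 main libraries by length class (x axis, nt, with the number of junctions in each class), and the share in percent with a shorter anchor of at most 12 nt, listed in the paired-end library, and listed in all 6 main libraries (y axis). To the left of the dotted line at 1000 nt the paired-end share stays above 90%; between 2501 and 20000 nt it is 6.25% or less while the short-anchor share is 90.6% or more.

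Whether the members recur in reads of another kind was read from the paired-end library. It listed 45 of 218 members (20.6%, exact 95% Clopper-Pearson interval 15.5% to 26.6%), against 3121 of 3184 recurrent junctions of at most 1000 nt (98.0%). The 45 were all wide-anchor junctions, 45 of 53 (84.9%, interval 72.4% to 93.3%). None of the 165 narrow-anchor junctions was listed, for which the same interval reaches 2.21% and the limit of 3 counts of the total is 1.82%. Among members with at least 20 reads over the 6 libraries the paired-end library listed 37 of 37 wide-anchor and 0 of 67 narrow-anchor junctions. Of the short recurrent junctions with at least 20 reads it listed 2708 of 2717.

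Soybean oil replicate 2 gave the same picture from libraries of 1 medium and number. Its 50 bp library listed 81 narrow-anchor junctions with 1767 reads, and the paired-end library 0 of these 81. The same 50 bp library listed 43 wide-anchor junctions with 3407 reads, of which the paired-end library listed 37 with 28357 reads. Of its 2847 short recurrent junctions 2816 were in the paired-end list. Read length, read pairing and depth differed together between these libraries, and which of them went with the difference was not tested.

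**Figure D3:**
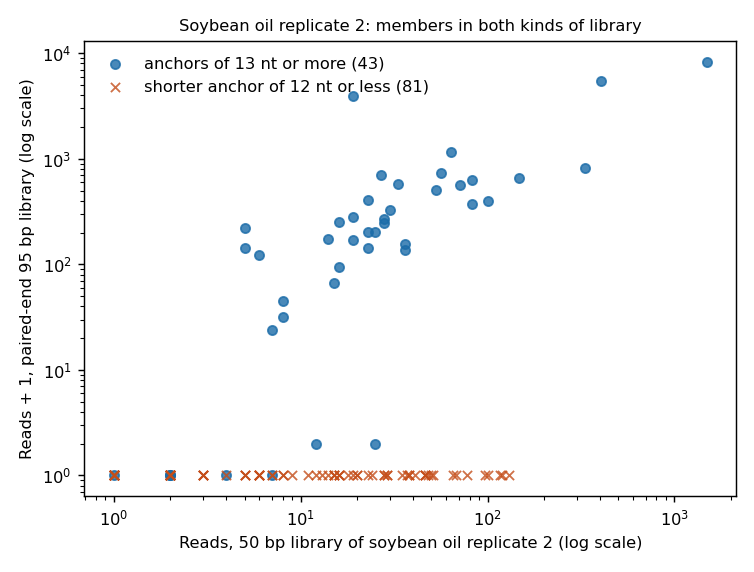
Members listed in the 50 bp library of soybean oil replicate 2, with their reads there (x axis, log scale) and their reads plus 1 in the paired-end 95 bp library of the same number (y axis, log scale). The 81 narrow-anchor junctions lie on the bottom line, at 0 reads in the paired-end library, and 37 of 43 wide-anchor junctions lie above it.

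The stranded libraries listed few narrow-anchor junctions as well. Each of these libraries came with a pair of lists whose difference the labels do not explain. On glucose each list held 4 of the 165 narrow-anchor junctions, 8 between them and 0 in both lists. With oil the lists held 4 and 5, 8 between them and 1 in both. No narrow-anchor junction was found in both media. Of the wide-anchor junctions 32 of 53 were found in at least 1 list on glucose, 29 with oil and 24 in both media. All of these 24 were also in the paired-end list. Both lists of a library held 20 wide-anchor junctions on glucose and 17 with oil. The short recurrent junctions were found at 83.1% on glucose and 68.8% with oil.

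From library to library the narrow-anchor junctions came and went. None was listed in all 6 main libraries, and 118 of 165 were in 2. There were 44 with at least 20 reads in some main library, and all 44 were missing from another, which follows from none being in all 6. Of the 44, 39 were missing from a library of the same medium as such a count. Such a gap within a medium was found in 4 of 25 wide-anchor junctions and 85 of 2049 short recurrent junctions (4.15%). A gap in any main library was found in 4 of 25 and 159 of 2049 (7.76%). Of the 118 listed in 2 libraries, 73 were in 1 library of each medium, 27 in 2 oil libraries and 18 in 2 glucose libraries, where 9 of the 15 possible pairs of libraries are across media and 3 lie within each.

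**Figure D4:**
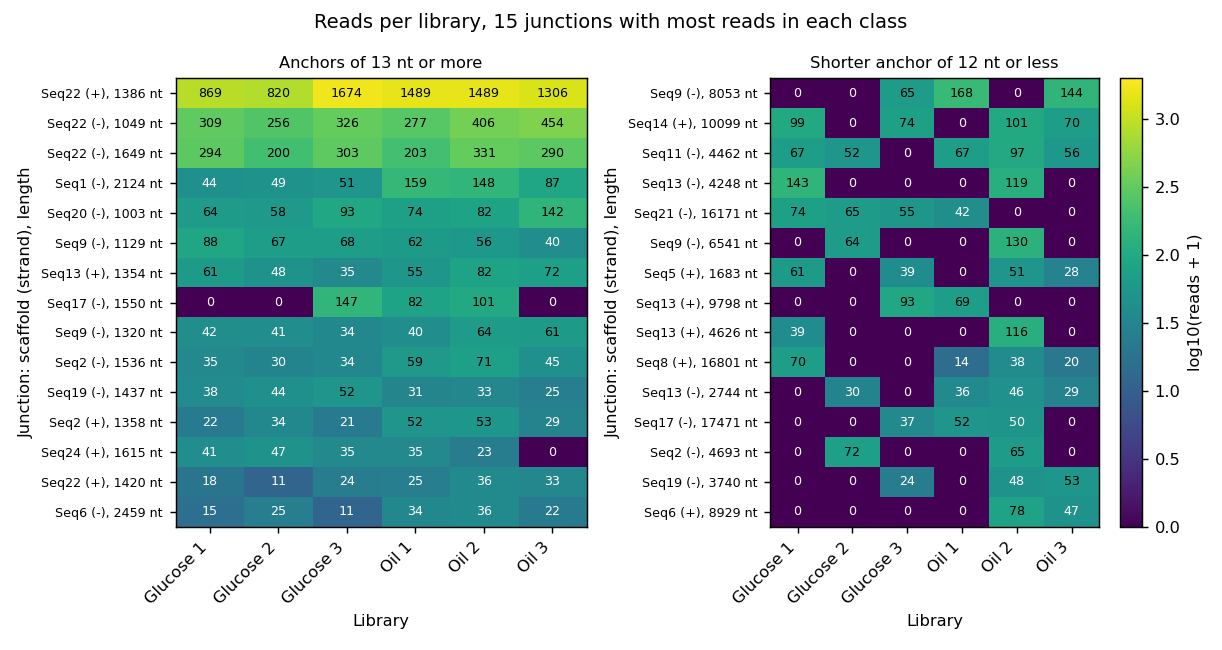
Reads in each of the 6 main libraries (columns) for the 15 members with most reads in each set (rows, named by scaffold, strand and length), with the number of reads printed in each cell and its colour on a log10(reads + 1) scale. Among the wide-anchor rows on the left 2 have cells at 0, and each of the narrow-anchor rows on the right has at least 1 cell at 0 beside cells of 20 reads or more.

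The member with most reads was the intron of 1386 nt at Seq22:126752-128137 on the plus strand. It had 869, 820 and 1674 reads in the glucose libraries and 1489, 1489 and 1306 in the oil libraries, and 8244 in the paired-end library. Glucose replicate 3 lay above every oil library and glucose replicates 1 and 2 below every one, so the groups overlapped. Its log2 change was 0.16 ± 0.33 (SE) with an adjusted p of 0.775 by edgeR's quasi-likelihood test. From the same donor a second member led to an acceptor 34 nt further on, at 128171, with 18, 11 and 24 reads on glucose and 25, 36 and 33 with oil. The nearer acceptor took 97.9% ± 0.385 (SD, n = 3) of the reads of that donor on glucose and 96.7% ± 0.612 with oil. A further short form from this donor, of 918 nt, was in all 6 libraries at 0.446% ± 0.152 and 0.790% ± 0.258 of the reads.

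Scaffold Seq22 carried the next members in order of reads too. At Seq22:176127-177175 on the minus strand, 1049 nt, the reads were 309, 256 and 326 on glucose, 277, 406 and 454 with oil, and 5404 in the paired-end library. At Seq22:230713-232361, also minus, 1649 nt, they were 294, 200 and 303 on glucose, 203, 331 and 290 with oil, and 815 in the paired-end library. Both were present in every main library and the media overlapped at each, with log2 changes of 0.20 ± 0.23 and -0.12 ± 0.22 and adjusted p of 0.589 and 0.749 by edgeR. The paired-end to 50 bp proportions of these neighbours were unlike, although their 50 bp reads were close. Seq22 held 13 members, 8 of them with wide anchors, which is 22.8 members per 100 core introns on that scaffold, the most of any. On Seq17, which held the most members at 29, the figure was 10.1.

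The other wide-anchor members listed in every library had fewer reads. The shortest member of all, at Seq20:546230-547232 on the minus strand with 1003 nt, had 64, 58 and 93 reads on glucose and 74, 82 and 142 with oil. The intron of 1354 nt at Seq13:518663-520016, plus strand, had 61, 48 and 35 reads on glucose and 55, 82 and 72 with oil. At Seq9:350886-352205, minus, 1320 nt, the reads were 42, 41 and 34 and then 40, 64 and 61, with 1155 in the paired-end library. In these 3 the media overlapped, and none passed edgeR's threshold (adjusted p 0.567, 0.222 and 0.314). The Seq13 intron was absent from all 4 stranded lists although the paired-end library gave it 631 reads. At Seq2:1892557-1893914, plus, 1358 nt, there were 22, 34 and 21 reads on glucose and 52, 53 and 29 with oil. At Seq6:640758-643216, minus, 2459 nt, there were 15, 25 and 11 on glucose and 34, 36 and 22 with oil. In both, 2 oil libraries stood above every glucose library and the last lay among them, with adjusted p of 0.151 and 0.167 by edgeR. The next shortest member of all, Seq4:94845-95850 on the minus strand with 1006 nt, had 19, 12 and 16 reads on glucose and 19, 23 and 0 with oil, so its only gap was oil replicate 3.

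A few long introns skipped an exon that other listed introns flank, the geometry known as a cassette exon. At Seq9:395727-396855 on the minus strand the member of 1129 nt had 88, 67 and 68 reads on glucose and 62, 56 and 40 with oil. Its left end was shared with an intron of 403 nt (96, 107 and 84 reads, then 51, 59 and 63) and its right end with an intron of 681 nt (90, 61 and 73, then 65, 59 and 52). Between these lies a stretch of 45 nt at 396130-396174, a whole number of codons in length. Skipping was taken as the reads of the long form over these reads plus the mean of the flanking introns. It was 46.5% ± 2.12 (SD, n = 3) on glucose and 47.1% ± 5.49 with oil (2-sided exact permutation p = 0.9, where 0.1 is the smallest possible). In the paired-end library it was 34.5%. The skipped and the included form were thus both present in every library of both media.

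A second such place lay on Seq19, minus strand. The member at 89877-91313, 1437 nt, had 38, 44 and 52 reads on glucose and 31, 33 and 25 with oil, and skipped a stretch of 69 nt at 90227-90295, again a whole number of codons. The inner introns were of 350 nt, in all 6 libraries, and of 1018 nt, itself a member with 15, 19 and 10 reads on glucose and 7, 0 and 9 with oil. Skipping was 66.6% ± 5.98 on glucose and 73.3% ± 5.55 with oil (n = 3 each, exact permutation p = 0.3), and 68.3% in the paired-end library. Another member from the same donor at 91313, to 89738, had 4, 5 and 5 reads on glucose and 0 in each oil library, against 3 reads in the paired-end oil library. It would also leave out the 47 nt at 89830-89876, a length that is no multiple of 3. At Seq14:293299-294443, minus, 1145 nt, with 26, 21 and 19 reads on glucose and 17, 23 and 14 with oil, the skipped stretch of 265 nt was joined by few reads, and skipping was 90.2% ± 11.3 and 93.5% ± 6.41 (exact permutation p = 0.7). At Seq2:1624157-1626490 on the plus strand, 2334 nt, the reads were 27, 19 and 7 on glucose and 25, 28 and 30 with oil, and a core intron of 294 nt left the same donor with 14, 23 and 8 reads and then 14, 21 and 11. The long form took 52.6% ± 11.5 of their reads (SD, n = 3) on glucose and 64.8% ± 8.04 (n = 3) with oil, and the groups overlapped.

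Wide-anchor members that shared 1 end differed at the other by 3 to 576 nt between neighbouring ends, and by 8 nt or less in 3 of 9 cases. The examples were picked after their values had been seen. On Seq10, minus strand, introns of 2187 and 2184 nt shared their donor and had acceptor ends at 190725 and 190728, 3 nt apart, and had 1, 3 and 1 against 2, 4 and 0 reads on glucose, and 16, 8 and 7 against 7, 7 and 6 with oil. The paired-end library gave them 44 and 23 reads, so both forms were seen in both kinds of library. On Seq13 an acceptor at 520024 lay 8 nt beyond that of the member at 520016. On Seq18, minus strand, introns from 1449793 ended at 1448262 and 1448361, 99 nt apart, and had the same reads in 5 of the 6 libraries: 5, 14 and 10 on glucose and 19 and 13 in oil replicates 2 and 3. In oil replicate 1 the longer had 14 reads and the shorter 0. The paired-end library gave them 280 and 3928 reads, so counts that were equal with 50 bp reads were far apart there.

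A pair of wide-anchor members mirrored each other on the 2 strands. This pair, too, was picked after its values had been seen. On Seq23 a plus-strand junction at 239427-241195 and a minus-strand junction at 239432-241200 both spanned 1769 nt, shifted by 5 nt. Glucose replicate 2 gave each 5 reads, the plus-strand one had 2 more in glucose replicate 3 and the minus-strand one 2 more in glucose replicate 1, and neither was listed with oil. The paired-end oil library gave 28 reads to each. It was the only pair of members on opposite strands with both ends within 20 nt of each other.

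Very long members with wide anchors were few. On Seq22, minus strand, junctions from 83589 to 112994 (29406 nt) and to 113000 (6 nt further) were listed in all 6 libraries. The first had 20, 14 and 14 reads on glucose and 22, 25 and 9 with oil, and the second 5, 4 and 3 and then 7, 12 and 3. Both had a shorter anchor of 29 nt. The paired-end library gave each of them 1 read, the lowest value among the 26 members listed everywhere, whose median there was 303. The longest member, Seq13:641430-909825 on the plus strand, spanned 268396 nt with 5 reads in glucose replicate 2 and 4 in oil replicate 2, and the next, Seq2:1802573-1834700 on the minus strand, 32128 nt with 5 reads in all. Neither was in the paired-end list.

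Another kind of gap was seen at Seq17:823807-825356, minus strand, 1550 nt, whose shorter anchor was 21 nt. It had 0, 0 and 147 reads on glucose and 82, 101 and 0 with oil, and 394 in the paired-end library. It was high in 3 libraries across both media and unlisted in the other 3. At Seq24:138079-139693, plus, 1615 nt, the reads were 41, 47 and 35 on glucose and 35, 23 and 0 with oil, with 200 in the paired-end library of replicate 2. These are cases where a wide-anchor junction seen in the longer reads was missing from a 50 bp list, and the part of the junction calling in this was not tested.

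The narrow-anchor junctions were looked at from their well-anchored end, the side with the larger anchor, since that is the position their reads fix best. The 165 junctions had 150 such ends. The short anchor lay on the donor side in 70 and on the acceptor side in 95. At 84 of the 150 ends (56.0%) a junction of at most 1000 nt was also listed, and at 73 a core intron. The paired-end library listed 82 of the 150 ends, and at every 1 of the 82 with a junction of at most 1000 nt. Where the 50 bp libraries had such a short partner, the long junctions took a median of 6.40% of the reads at that end, from 0.195% to 68.5%. Thus more of these ends than not were shared with a listed junction of at most 1000 nt, in some cases listed in 1 library only. Fewer than not were shared with a core intron.

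Of the 66 ends without a short partner in the 6 libraries, the paired-end library listed 1 with a junction. This was Seq21:331314 on the minus strand, where it gave 4416 of its 4520 reads to an intron of 251 nt. In the 50 bp libraries the same end was joined to 6 places over 1000 nt away. The far ends were 326583 (46, 44 and 33 reads on glucose and 0 in each oil library), 315144 (74, 65 and 55, then 42, 0 and 0) and 311426 (20, 0 and 20, then 0, 41 and 0), and 3 more in 1 library each with 37, 32 and 23 reads. Together these came to 177, 109 and 163 reads on glucose and 42, 41 and 0 with oil. The sum of every glucose library was above that of every oil library. The far ends at 326583 and 315144 were listed in all 3 glucose libraries, while the others changed between replicates.

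Such ends with several far ends were not rare. At 46 of the 150 ends more than 1 far end over 1000 nt was listed, up to 6. At Seq9:530181, minus strand, the far end was 8053 nt away in glucose replicate 3 and oil replicates 1 and 3 (65, 168 and 144 reads) and 6541 nt away in glucose replicate 2 and oil replicate 2 (64 and 130 reads). No library listed both of these. At Seq5:182154, plus strand, 5 members overlapped between 167620 and 182154, the most at any place, with far ends of 180472 (61, 0 and 39, then 0, 51 and 28), 175383 (0, 31 and 19, then 30, 0 and 0), 174113 (13, 16 and 0, then 0, 11 and 3), 174068 and 167620. With 1 more far end listed in 1 library, the reads at this end came to 30 to 92 per library, and none of the 5 members was in the paired-end list. The places with the next most overlapping members, 4 each, were on Seq21 between 311426 and 331314 and on Seq22 between 83589 and 115598. The 4 on Seq21 were the 3 members ending at 331314 described above and 1 ending at 331051.

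**Figure D5:**
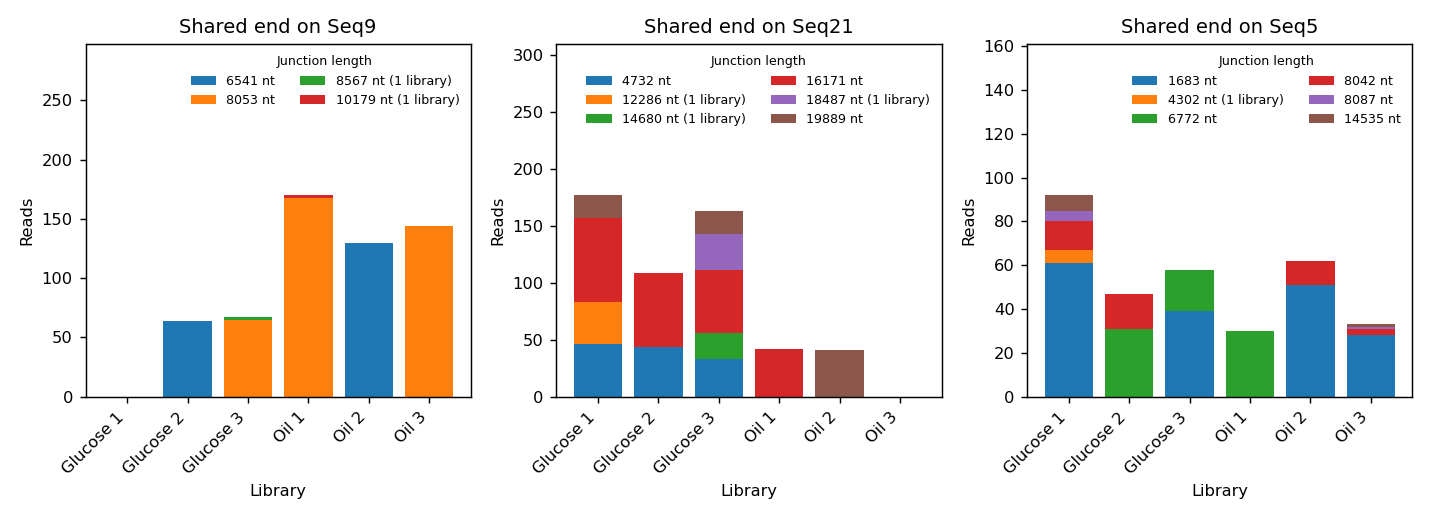
Reads per main library (x axis) at well-anchored ends on Seq9, Seq21 and Seq5, stacked by the length of the junction that has an end there (colours, nt), with those listed in 1 library marked. The y axis is reads. On Seq9 each library with reads has 1 main colour, either 6541 or 8053 nt, on Seq21 the 4732 and 16171 nt colours are in all 3 glucose libraries and the others are not, and on Seq5 the colours change between libraries of the same medium.

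Other narrow-anchor members with many reads sat beside a short intron. At Seq14:9738-19836, plus strand, 10099 nt, the reads were 99, 0 and 74 on glucose and 0, 101 and 70 with oil. An intron of 95 nt from the same well-anchored end had 173, 148 and 123 reads and then 120, 194 and 133, with 642 in the paired-end library. At Seq11:137723-142184, minus, 4462 nt, the reads were 67, 52 and 0 and then 67, 97 and 56, beside an intron of 173 nt with 316, 234 and 191 and then 289, 421 and 291. In both, the short intron was present in every library, including those in which the long junction was at 0. At Seq8:206061, plus strand, members 9 nt apart began at 189261 (70, 0 and 0, then 14, 38 and 20) and 189270 (0, 0 and 0, then 14, 46 and 21). The paired-end library gave neither, and 5550 reads to an intron of 149 nt at that end, which the 50 bp libraries listed in oil replicates 1 and 3 with 45 and 140 reads.

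Core introns inside the span were counted for each member. Of the narrow-anchor junctions 48 enclosed no core intron on their own strand, 58 enclosed 1, 52 enclosed 2 to 5 and 7 more than 5. On the opposite strand 71 of 165 enclosed at least 1. Of the wide-anchor junctions 36 of 53 enclosed none on their strand, and 4 had any on the other. Longer spans hold more introns, and the sets differed in length, so no comparison was drawn from these counts. A core intron began or ended within 1000 nt outside the junction on the same strand in 65 of 165 (39.4%) and 21 of 53 (39.6%). Of all 218 members 90 (41.3%) shared a splice site with a core intron, 80 of them with narrow and 10 with wide anchors, and 2 shared both of their ends. A member with both ends in use by core introns was Seq20:294332-311600 on the minus strand, 17269 nt, with 4 and 2 reads in oil replicates 1 and 2 and none elsewhere.

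Between the media the number of members listed did not separate. The glucose libraries listed 106, 103 and 100 members and the oil libraries 107, 124 and 103, or 103 ± 3.0 (SD, n = 3) against 111 ± 11.2 (2-sided exact permutation p = 0.3). The groups overlapped and the highest library was oil replicate 2, which also had the most junction reads. Members took 1.77%, 1.60% and 2.42% of junction reads on glucose and 2.19%, 2.30% and 2.12% with oil, which is 1.93% ± 0.431 against 2.20% ± 0.0928 (exact permutation p = 0.4). Glucose replicate 3 was the highest of all 6 and the other glucose libraries the lowest. Without the member with most reads, Seq22:126752-128137, the shares were 1.31%, 1.12% and 1.398% on glucose and 1.38%, 1.64% and 1.36% with oil, and glucose replicate 3 was no longer the highest. In RNA from whole cultures, fewer cells that use a junction and less of its RNA per cell cannot be told apart.

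Junction by junction, 51 of the 218 members had enough reads in enough libraries for the test between media, 23 with narrow and 28 with wide anchors. Of these 51, 8 (15.7%) were called at an adjusted p under 0.05 in edgeR's quasi-likelihood test, where 21.7% of the 2270 tested junctions were called. Of the 8, 4 were higher with oil (9.78% of all tested junctions were) and 4 lower (11.9% of all). In this setting the called share of members was thus not above that of all junctions, while in some of the alternatives given below it was. The median log2 change of the 51 was 0.20, against -0.01 over all tested. A junction listed in 1 medium alone can pass the read filter only through that medium, so the count is a description. The called members were 3 with wide and 5 with narrow anchors.

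The largest called change among wide-anchor members was at Seq11:232848-234533, minus strand, 1686 nt. It had 22, 38 and 23 reads on glucose and 7, 6 and 4 with oil, so every glucose library was above every oil library. The log2 change was -2.42 ± 0.39 (SE) with an adjusted p of 0.00297 by edgeR, and the paired-end oil library gave it 121 reads. At Seq1:180273-182396, minus, 2124 nt, the reads were 44, 49 and 51 on glucose and 159, 148 and 87 with oil, a log2 change of 1.28 ± 0.25 with an adjusted p of 0.00756. At Seq2:514747-516282, minus, 1536 nt, they were 35, 30 and 34 and then 59, 71 and 45, a log2 change of 0.65 ± 0.20 with an adjusted p of 0.0497. The groups did not overlap in either, but the last call ended in 10 of 11 alternatives, with adjusted p of 0.0509 to 0.202 in these. The stranded lists showed the Seq2 junction with oil alone (32 and 25 reads, against 0 and 0 on glucose). No intron of at most 1000 nt within 3000 nt on the same strand was tested for any of the 3, so whether the reads followed the level of the whole transcript was not tested.

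The 5 called narrow-anchor members were each unlisted in a whole medium. Each passed the read filter only through the medium in which it was listed, so its adjusted p is a description and no independent evidence. Narrow-anchor junctions with 20 reads or more were also missing from libraries of their own medium, as given above, so an unlisted junction sets no bound on its reads and no fold is given. On glucose alone were Seq21:326583-331314, with the reads given above (adjusted p of 0.000144 by edgeR), Seq2:1078525-1082587 on the minus strand with 26, 31 and 28 reads (adjusted p of 0.000532), and Seq21:545534-564063 on the minus strand with 15, 12 and 14 reads (adjusted p of 0.00275). With oil alone were Seq21:245997-265367 on the plus strand with 18, 29 and 20 reads (adjusted p of 0.0013) and Seq8:189270-206061 (adjusted p of 0.00264). The short introns at the same well-anchored ends did not show these differences where they were tested. The intron of 81 nt beside the Seq2 junction had 189, 182 and 132 reads on glucose and 161, 195 and 168 with oil (log2 change -0.08, adjusted p of 0.737 by edgeR). The introns of 70 and 63 nt beside the other Seq21 junctions had adjusted p of 0.948 and 0.423 by edgeR.

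In the other libraries these 5 junctions were nearly absent. The paired-end library listed none of them, and gave 3168, 1285 and 571 reads to the short partner introns of 81, 70 and 63 nt. It is an oil library, so for the junctions listed on glucose alone it cannot show whether they recur. For those listed with oil alone, the introns at the same ends had 1285 reads (70 nt, Seq21) and 5550 reads (149 nt, Seq8) there. The junction at Seq21:245997-265367, unlisted in the 3 glucose libraries, had 12 reads in a stranded glucose list and 0 in both stranded oil lists, which is the opposite medium. Among the narrow-anchor junctions listed in exactly 3 libraries, 4 were in the 3 oil libraries and 3 in the 3 glucose libraries, and 24 in libraries of both media, where 18 of the 20 possible sets of 3 libraries hold both.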

How the data were processed

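Junction reads were taken from the deposited junction lists of 9 libraries, which hold whole-number counts of reads per junction made by the authors with TopHat 1.4.1, per the submitters' processing notes. Neither aligner settings nor a genome build appear in those notes or the file headers. The deposited gene files were not used, since they carry no positions. Intron ends were the inner edges of the 2 blocks of an entry, and the block sizes gave the anchors. The members and all lists were chosen with earlier results of these data known. Members named in the text were the 10 with most reads, up to 15 listed in all 6 libraries, those past the threshold, up to 10 found in the paired-end and both stranded libraries, the shortest and longest pairs, and the 2 places with most overlapping members. Others are named as examples picked after their values were seen. All 8340 junctions entered edgeR 4.0.16 in R 4.3.3 (TMM factors, its filter on low counts, quasi-likelihood test, Benjamini-Hochberg over 2270 tested junctions, threshold 0.05). DESeq2 1.42.0, other filters, the replicate block and leaving out each library were alternatives. On simulated counts the test made 5 false calls among 2293 tested and recovered 100% of the 4-fold and 52% of the 2-fold changes. These rates were not worked out for the members apart. Whether they hold for junctions with as few reads as the members (median 17 over the 6 libraries) was not tested. Nor was it tested for junctions that came and went between libraries of the same medium. Single values per library were compared by 2-sided exact permutation tests, for which 0.1 is the smallest possible p.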

Additional observations from a re-analysis of the deposited data

How the results depend on the processing

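The count of called members was 8 and stayed between 7 and 8 with DESeq2's size factors, the DESeq2 test, a minimum of 10 reads and the replicate block. It became 28 (18 higher, 10 lower) without a filter on low counts, when all 218 members were tested. It was 8 to 13 when 1 library was left out (66 to 78 tested), 13 of them without soybean oil replicate 1. The called share of members was 12.8% without a filter, against 7.12% of all junctions. Without soybean oil replicate 1 it was 18.6% against 13.2%. It was also the higher share without glucose replicate 1, glucose replicate 2 or soybean oil replicate 3. Members had the lower share without glucose replicate 3 (13.2% against 19.96%) or soybean oil replicate 2 (12.1% against 15.4%). Their share was also lower in each of the settings named first. Over all 2270 tested junctions DESeq2 made 361 calls (15.9%). Apart from the junction at Seq2:514747-516282, whose call ended in 10 of 11 alternatives, the other 7 called members kept their call in all 11. The alternatives refit the same counts, so these are not separate tests. Among the 7 are the 5 narrow-anchor members unlisted in a whole medium of the main libraries, whose calls remain a description. Same-numbered libraries did not deviate together over 3199 junctions (correlations of -0.04, 0.029 and -0.001), so the numbers were not taken to pair the samples. The replicate block gave 7 called members and 358 called junctions in all, and in the comparisons of members listed (a difference of 8.33) and of the share of junction reads (0.271 percentage points) a sign-flip test within numbers gave p of 0.25 and 0.5.

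The number of members was 91 with listing in at least 3 libraries, 129 over 5000 nt, and 161 to 184 without 1 library. Their share in the paired-end list was 45.1% with at least 3 libraries, 5.26% over 2000 nt, 1.55% over 5000 nt, 29.6% with at least 10 reads, and 22.8% to 28.0% without 1 library, the highest without soybean oil replicate 2. The share with a core splice site was 48.2% when a partner in at least 2 libraries was enough. The following alternatives were chosen after seeing the data. Narrow-anchor junctions numbered 47 with at least 3 libraries and 112 to 136 without 1 library. Of the wide-anchor junctions 60.0% were in the paired-end list over 2000 nt, and 84.6% to 91.8% without 1 library. None of the narrow-anchor junctions was in the paired-end list under any of the 9 alternatives tried, including an anchor limit of 20 nt. These are not separate tests of that result. The sets with at least 3 libraries or over 2000 nt lie within the main narrow-anchor set, so they could list none. The sets without 1 library were drawn from the same members. The limit of 20 nt widened the set, to 168 junctions. The cause of these shifts was not tested. The difference in members listed was 1.0 to 10.5 without 1 library, lowest without soybean oil replicate 2 and 4.83 without glucose replicate 2, and 6.67 with every library thinned to 163851 junction reads. The difference in the share of junction reads was 0.0668 percentage points without glucose replicate 2, 0.14 without glucose replicate 1 and 0.512 without glucose replicate 3, and was positive in each case. Of the 218 members, 167 did not pass the filter for the test between media. This filter asks for enough reads in at least 3 libraries, so the 127 members listed in 2 libraries could not pass, whatever their reads. An example was Seq13:711694-715941, with 143 reads in glucose replicate 1 and 119 in soybean oil replicate 2. Among the other members, depth limits those with few reads.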

Other observations

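The paired-end library listed 1189 junctions over 1000 nt, of which 45 were members. Of the 1189, 122 had a shorter anchor of at most 12 nt there, whereas 654 to 746 of the 716 to 814 junctions over 1000 nt in each main library did. The stranded lists held 97 to 306 junctions over 1000 nt each, with 67 to 265 of them at such an anchor.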
